A study of Mus musculus with 27 samples.

Results

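The Cyp2c family of cytochrome P450 genes was examined across 3 lobular zones and 3 stages of the mouse liver. Its members were taken by symbol from the deposited table, 10 genes of 21823 in all: Cyp2c29, Cyp2c37, Cyp2c38, Cyp2c40, Cyp2c23, Cyp2c50, Cyp2c54, Cyp2c67, Cyp2c69 and Cyp2c70. The table lists Cyp2c44 under its other symbol, Cyp2c23, which is used below. The libraries came from wild-type female C57BL/6 mice (C57BL/6N in the study's methods) that were non-pregnant (NP) or at 8 or 16 days post coitum (dpc8 and dpc16), with no transgene or treatment. The ages of the mice are not in the labels. The study's methods describe young adult females, and its reporting summary gives a wider range of ages. From liver cryosections of each stage, tissue was cut by laser from zone 1 next to the portal vein, zone 3 next to the central vein and zone 2 between them, and RNA was sequenced after ribosomal RNA removal, with 3 libraries for each of the 9 groups. The labels number these libraries 1 to 3 without saying what the numbers stand for. The study calls them independent experiments and says of its experiments in general that they used different mice, but does not tie a library to an animal, so the p-values measure the spread between these libraries. A cut region holds every cell type that lies in it, and fewer hepatocytes or less RNA per hepatocyte cannot be told apart in such samples.

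Cytochromes P450 of the 2C class are haem enzymes of the endoplasmic reticulum that add oxygen to drugs, steroids and fatty acids, with electrons passed on by the reductase Por. Hepatocytes are their main source in the liver, where drug-oxidising P450 activity lies mostly near the central vein. Several mouse 2C enzymes convert arachidonic acid to epoxy or hydroxy fatty acids, among them Cyp2c29, Cyp2c38, Cyp2c40 and Cyp2c23. Cyp2c70 instead hydroxylates bile acids and makes the muricholic acids that are typical of rodents.

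All members lay on chromosome 19 of GRCm38 (mm10) in the GENCODE vM21 annotation. Of the 10, 9 stood in a cluster from Cyp2c29 at chr19:39269405-39330713 to Cyp2c70 at chr19:40153353-40187333, and Cyp2c23 lay apart at chr19:44005022-44029208. The longest coding transcript of each member had 9 exons. Coding sequences of the members were 59.5% to 97.7% identical over the 45 pairs, highest between Cyp2c67 and Cyp2c69, and 96.1% between Cyp2c37 and Cyp2c50. Exact 86-base windows, the length of the reads, were shared with another annotated gene over 51.1% of the longest Cyp2c40 transcript, 39.5% of Cyp2c69 and 30.2% of Cyp2c67. The share was 13.4% for Cyp2c50, 10.3% for Cyp2c54, 8.22% for Cyp2c37, 0.575% for Cyp2c38 and 0 for Cyp2c29, Cyp2c70 and Cyp2c23. The study kept uniquely mapped reads, and a read that lies wholly in a shared stretch has more than 1 such place, so the levels of Cyp2c40, Cyp2c69 and Cyp2c67 are less certain than the others.

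Promoters of close paralogs are shown first because their owners differed in where and when their transcripts were found. RefSeq promoter windows on GRCm38.p6, from 250 bases before to 50 bases after the annotated start, were present for 8 of the 10 members, and Cyp2c54 and Cyp2c23 had none in the table used. Cyp2c40 (chr19:39812765-39813064, minus strand), Cyp2c69 (chr19:39886720-39887019, minus strand) and Cyp2c67 (chr19:39648993-39649292, minus strand) are given with the letters CAAAGTC, a core bound by the hepatocyte factor HNF4A, in capitals.
Cyp2c40: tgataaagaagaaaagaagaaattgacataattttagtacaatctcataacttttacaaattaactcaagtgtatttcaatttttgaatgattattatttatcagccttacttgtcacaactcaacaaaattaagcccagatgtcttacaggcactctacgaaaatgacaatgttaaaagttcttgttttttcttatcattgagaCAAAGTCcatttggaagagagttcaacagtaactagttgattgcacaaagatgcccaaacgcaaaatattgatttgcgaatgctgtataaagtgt
Cyp2c69: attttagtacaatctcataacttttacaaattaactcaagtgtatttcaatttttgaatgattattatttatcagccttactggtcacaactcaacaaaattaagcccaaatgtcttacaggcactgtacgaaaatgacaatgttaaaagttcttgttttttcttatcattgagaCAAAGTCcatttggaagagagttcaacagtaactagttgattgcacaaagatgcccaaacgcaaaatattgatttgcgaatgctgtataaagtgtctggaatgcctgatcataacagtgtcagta
Cyp2c67: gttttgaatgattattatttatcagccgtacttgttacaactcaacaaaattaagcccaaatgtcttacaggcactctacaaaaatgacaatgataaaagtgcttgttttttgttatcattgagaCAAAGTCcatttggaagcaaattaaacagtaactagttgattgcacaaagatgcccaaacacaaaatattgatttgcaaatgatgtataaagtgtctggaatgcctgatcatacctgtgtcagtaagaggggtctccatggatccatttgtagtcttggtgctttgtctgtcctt

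The Cyp2c40 and Cyp2c69 windows differed in 3 of the 270 columns in which they overlapped, an identity of 98.9%, and their annotated starts are offset, so that the same CAAAGTC stood at positions -45 to -39 in Cyp2c40 and -75 to -69 in Cyp2c69, counted from the annotated start. Cyp2c67 was 92.8% identical to Cyp2c69 over 250 columns. The next windows belong to Cyp2c37 (chr19:39992174-39992473, plus strand) and Cyp2c50 (chr19:40089429-40089728, plus strand), whose transcripts moved together, and to Cyp2c29 (chr19:39286835-39287134, plus strand) and Cyp2c38 (chr19:39463026-39463325, minus strand), whose transcripts did not.
Cyp2c37: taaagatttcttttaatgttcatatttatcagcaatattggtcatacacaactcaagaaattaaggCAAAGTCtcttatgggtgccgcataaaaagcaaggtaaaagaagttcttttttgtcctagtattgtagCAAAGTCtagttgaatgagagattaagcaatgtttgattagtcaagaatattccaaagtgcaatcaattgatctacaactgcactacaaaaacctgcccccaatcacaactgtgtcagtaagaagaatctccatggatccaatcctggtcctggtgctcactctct
Cyp2c50: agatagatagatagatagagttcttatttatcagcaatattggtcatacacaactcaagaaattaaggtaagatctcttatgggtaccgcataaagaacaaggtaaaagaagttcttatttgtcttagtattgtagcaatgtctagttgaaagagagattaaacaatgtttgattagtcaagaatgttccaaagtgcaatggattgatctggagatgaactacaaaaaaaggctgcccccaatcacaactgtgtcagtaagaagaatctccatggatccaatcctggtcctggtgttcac
Cyp2c29: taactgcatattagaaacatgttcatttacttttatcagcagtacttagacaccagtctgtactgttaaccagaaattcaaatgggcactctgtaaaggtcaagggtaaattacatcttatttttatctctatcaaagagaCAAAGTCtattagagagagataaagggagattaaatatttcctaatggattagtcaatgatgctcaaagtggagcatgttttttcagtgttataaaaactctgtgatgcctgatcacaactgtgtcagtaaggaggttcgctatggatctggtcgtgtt
Cyp2c38: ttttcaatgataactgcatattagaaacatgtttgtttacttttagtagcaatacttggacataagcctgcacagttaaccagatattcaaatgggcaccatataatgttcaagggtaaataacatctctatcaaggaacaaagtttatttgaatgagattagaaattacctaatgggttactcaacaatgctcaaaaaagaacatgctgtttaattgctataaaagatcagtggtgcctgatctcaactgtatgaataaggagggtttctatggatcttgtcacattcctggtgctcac

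Cyp2c37 and Cyp2c50 were 88.3% identical over 299 columns, and CAAAGTC occurred at 2 places in the former and at none in the latter. Cyp2c29 and Cyp2c38 were 75.3% identical over 300 columns, with CAAAGTC in Cyp2c29. On either strand, these letters were in 6 of the 8 member windows and in 4.44% of 32841 RefSeq promoter windows of the same length. The 6 windows are not independent, as those of Cyp2c40, Cyp2c69 and Cyp2c67 were 92.8% to 98.9% identical to each other. TCAAAG, a core bound by TCF/LEF factors, was in the Cyp2c29 and Cyp2c70 windows and in 16% of all windows, and in Cyp2c70 it overlapped the HNF4A letters. AGGTCA, a core bound by many nuclear receptors, was in the same 2 member windows and in 16.3% of all windows. TTCNNNGAA, the STAT5 letters, was in none of the 8 and in 8.3% of all, and GTTAAT, an HNF1 core, was in Cyp2c40, Cyp2c69 and 7.1% of all windows. These matches describe letters only.

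The level of a gene was taken as the deposited FPKM, fragments per kilobase of transcript scaled to the mapped reads of the library, and differences were tested with limma on log2(FPKM + 1) across 12952 genes, with p-values adjusted over all of them by the method of Benjamini and Hochberg and a threshold of 0.05. The steps between low FPKM values corresponded to 7540000 to 33340000 reads per library, by an estimate in which 93.5% to 97.7% of low values fell within 0.15 of a whole read. Zone labels held in the marker genes, whose lists were chosen with earlier results of these data known. Of 13 periportal genes, 9, 9 and 11 were called higher in zone 1 than in zone 3 at NP, dpc8 and dpc16. Of 13 pericentral genes, 12, 13 and 12 were called lower. Alb, the albumin gene, held 3.71% to 11.98% of the summed FPKM of NP libraries and 7.98% to 20.97% of those of dpc16, a difference in make-up whose part in the changes at dpc16 was not tested. In 6 libraries the 4 Y-linked genes summed to 7.92 to 23.2 FPKM against at most 2.97 in the other 21, although all mice are labelled female, and the same 6 held the highest mean log2 level of 13 connective tissue genes, 5.25 to 6.79 against 1.45 to 4.34. Of the lists for other cell types, 0 of 13 connective, 0 of 9 endothelial and 0 of 5 biliary genes were called by limma in any zone between dpc16 and NP (0 to 1 of each list at an unadjusted p under 0.05), and 1 of 7 Kupffer cell genes was called lower in zone 2. The Kupffer cell genes had 0, 5 and 3 of 7 at an unadjusted p under 0.05 in zones 1, 2 and 3, and 1 of 5 erythroid genes was called higher in zone 1 and 1 of 7 hepatocyte genes, Ttr, lower in zones 2 and 3. The hepatocyte genes had median differences of 1.17, 0.28 and 0.63 in zones 1, 2 and 3, with 6, 2 and 2 of 7 at an unadjusted p under 0.05. Between zones 1 and 3, 3 endothelial genes were called lower in zone 1 at each stage, 1 biliary gene higher at NP and dpc8, 1 connective gene lower at dpc8 and at dpc16, and 1 Kupffer cell gene higher at dpc16, where 6 of 7 had an unadjusted p under 0.05. The part of the endothelial, biliary, Kupffer cell, erythroid and hepatocyte genes in the results was not tested, while the connective genes entered an alternative fit as a covariate and the 6 libraries were left out of another. The 6 libraries were NP zone 1 library 1, NP zone 3 library 2, dpc8 zone 1 library 1, dpc8 zone 2 library 2, dpc16 zone 2 library 3 and dpc16 zone 3 library 3.

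All 10 members were above 0 in all 27 libraries and passed the filter on low values. Their summed level ran from 624 FPKM in dpc16 zone 1 library 2 to 9453 in dpc8 zone 3 library 3. By group mean it was highest in zone 3 at each stage, with 4742 ± 1134 (SD, n = 3) at NP, 7076 ± 2445 at dpc8 and 2089 ± 291 at dpc16. The genes that made up this sum changed with zone and stage. Cyp2c29 and Cyp2c70 held 40.9% and 33.7% of it in dpc16 zone 1, where Cyp2c37, Cyp2c50 and Cyp2c69 held 0.879%, 0.425% and 0.908%. In NP zone 3 the same 3 genes held 20.3%, 14.4% and 16.2%.

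**Figure D1:**
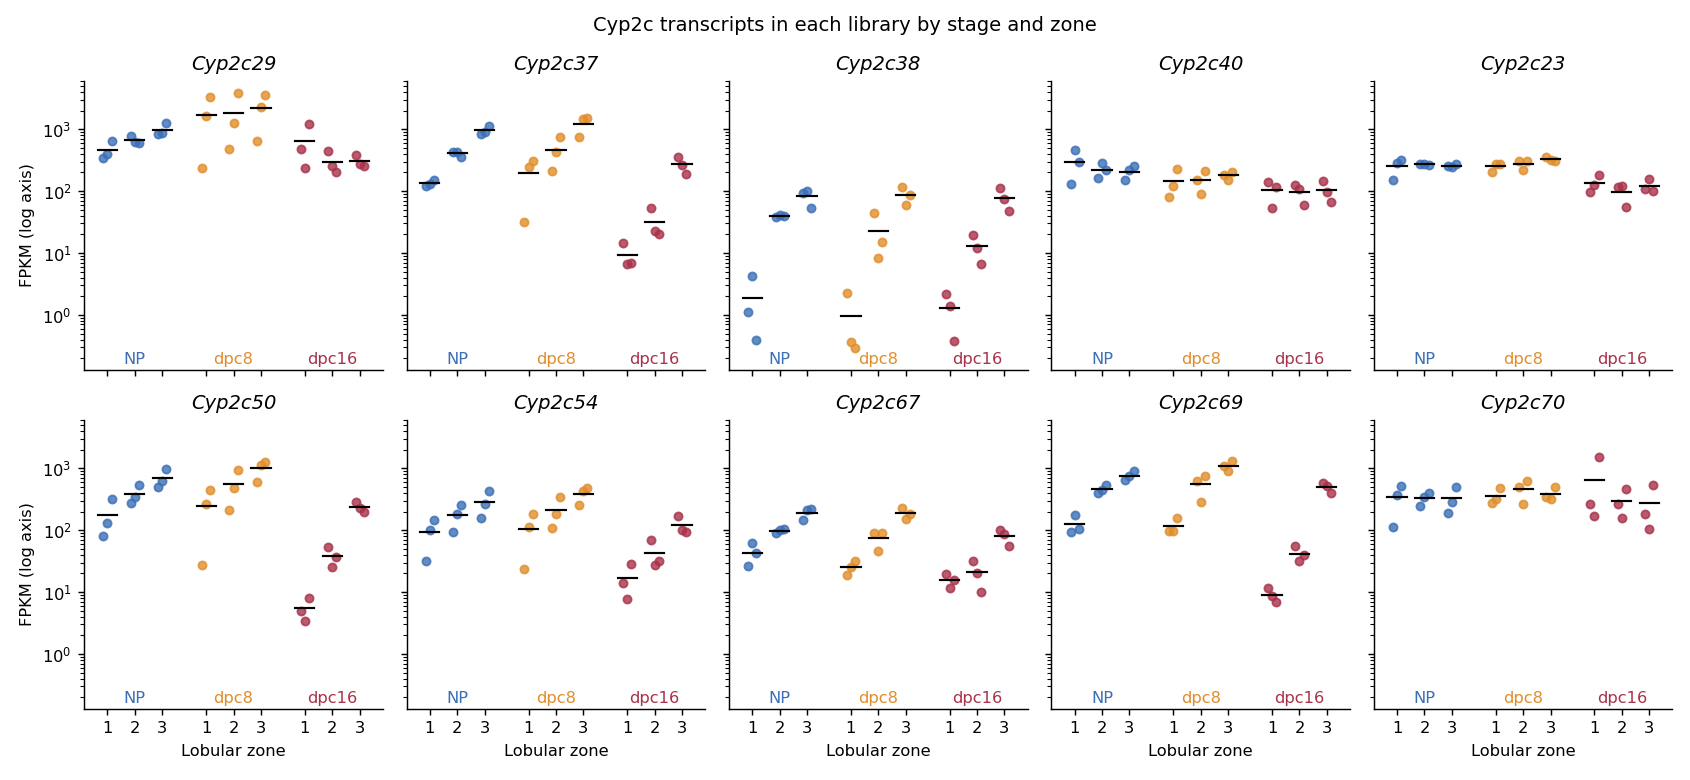
FPKM of the 10 Cyp2c genes on a log axis, 1 point per library and a bar at the mean of the 3 libraries, for zones 1 to 3 at NP (blue), dpc8 (orange) and dpc16 (red). Cyp2c37, Cyp2c38, Cyp2c50, Cyp2c54, Cyp2c67 and Cyp2c69 rise from zone 1 to zone 3 by group mean at every stage, while the zones of Cyp2c40 and Cyp2c70 overlap at every stage.

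**Figure D2:**
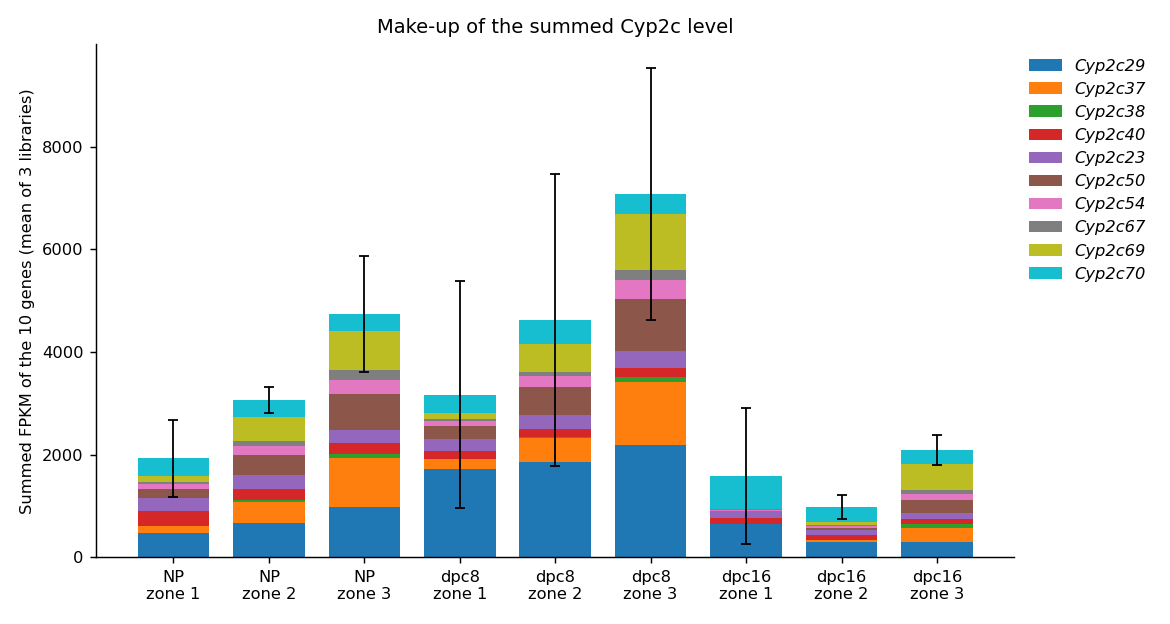
Mean FPKM of each of the 10 genes stacked to the family sum in each group, with error bars of 1 SD of the sum over 3 libraries. The sum is highest in dpc8 zone 3 (7076) and lowest in dpc16 zone 2 (974), while without dpc16 zone 1 library 3 the mean of dpc16 zone 1 is 838 in place of 1589.

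Between zones, 4 of the 10 members were called lower in zone 1 than in zone 3 at NP, where 0.811% of all genes were called lower. The members called were Cyp2c37, Cyp2c38, Cyp2c67 and Cyp2c69, and no member was called higher (0.525% of all genes were). At dpc8 the count was again 4 (0.926% of all genes), and at dpc16 it was 6 (0.772%), with Cyp2c50 and Cyp2c54 added. No member was called higher at dpc8 (0.679%) or dpc16 (0.78%). Fitted with the compared groups alone, Cyp2c67 was not called at NP (adjusted p = 0.063) nor Cyp2c37 at dpc8 (0.15). Exactly 4 members were called lower in zone 1 at all 3 stages, as were 0.479% of all genes. The median difference over the 10 was -1.93 at NP, -2.45 at dpc8 and -2.59 at dpc16 on the log2 scale, against 0.03, 0.08 and -0.02 over all genes tested. All 3 zone 1 values lay below all 3 zone 3 values for 7, 7 and 6 members, and for 6.05%, 10.5% and 6.39% of all genes.

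**Figure D3:**
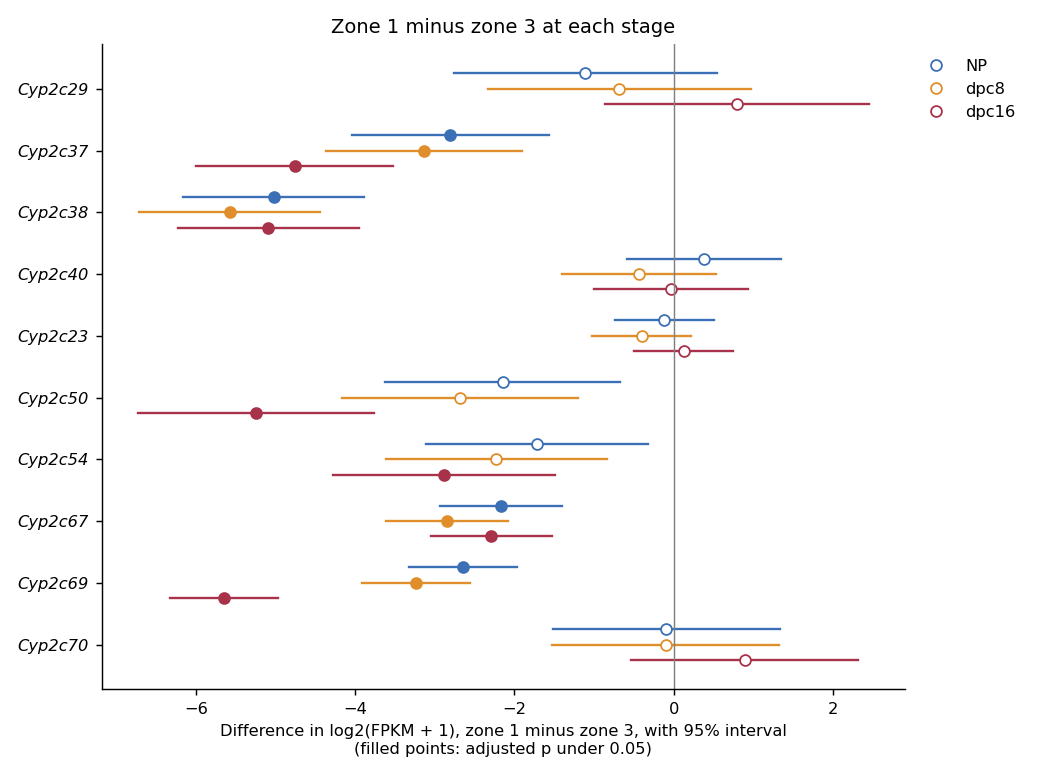
Difference in log2(FPKM + 1) between zone 1 and zone 3 for each gene at NP (blue), dpc8 (orange) and dpc16 (red), with 95% intervals from limma; filled points have an adjusted p under 0.05. Points left of 0 are lower in zone 1, with Cyp2c69 at dpc16 the lowest at -5.65.

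Cyp2c38, an arachidonic acid epoxygenase, was low in zone 1 at every stage. Its zone 1 values were 1.10, 4.19 and 0.389 FPKM at NP, 2.23, 0.370 and 0.294 at dpc8, and 2.16, 1.39 and 0.385 at dpc16. In zone 3 they were 93.8, 101 and 52.7 at NP, 118, 58.8 and 85.9 at dpc8, and 112, 75 and 47.2 at dpc16. The zones did not overlap at any stage, and the zone 3 values of the 3 stages lay over each other. The ratio of the zone 3 to the zone 1 mean was 43.6 at NP, 90.8 at dpc8 and 59.4 at dpc16. Single zone 1 libraries moved these ratios, to 111 without NP zone 1 library 2 and to 264 without dpc8 zone 1 library 1, and without 1 library of either zone the dpc16 ratio was 43.9 to 87.7. On the log2(FPKM + 1) scale, which understates the change of low values, the differences were -5.02 (SE 0.55, adjusted p = 2.91e-06), -5.57 (adjusted p = 8.18e-07) and -5.09 (adjusted p = 2.16e-06). Zone 2 of NP, at 37.5, 40.6 and 39.3 FPKM, fell between the outer zones, and zone 1 was called lower than zone 2 at NP (-4.02, adjusted p = 0.000644) and at dpc8 (-3.39, adjusted p = 0.00459). The dpc8 difference was -3.20 (adjusted p = 0.0542) without dpc8 zone 1 library 2, -3.16 (0.0652) without library 3 of that group and -2.75 (0.0673) without dpc8 zone 2 library 1. From NP to dpc16 the Cyp2c38 difference was -0.18 in zone 1 (95% interval -1.31 to 0.96), -1.66 in zone 2 (-2.79 to -0.52, adjusted p = 0.113) and -0.11 in zone 3 (-1.25 to 1.02), none of them called. In a limma fit with the replicate number as a block across stages, which no label ties together, the zone 2 value was called (adjusted p = 0.0451).

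Cyp2c37, Cyp2c50 and Cyp2c54 are neighbours in the cluster that share little sequence at the length of a read, and all of them had lower means in zone 1 than in zone 3 at every stage. Cyp2c37, an enzyme of fatty acid hydroxylation, had 119.8, 132 and 154 FPKM in NP zone 1, 433, 427 and 356 in zone 2, and 822, 899 and 1144 in zone 3. At dpc16 these became 14.2, 6.62 and 6.80 in zone 1, 52.4, 22.5 and 20.6 in zone 2, and 354, 262 and 191 in zone 3. Each zone of dpc16 lay wholly below the same zone of NP, and zone 1 lay wholly below zone 3 at both stages. Zone 1 was lower than zone 3 by -2.81 (SE 0.60, adjusted p = 0.0122) at NP, -3.13 (adjusted p = 0.00422) at dpc8 and -4.76 (adjusted p = 1.79e-05) at dpc16. The NP call was lost without NP zone 1 library 1 (-2.72, adjusted p = 0.0585), NP zone 1 library 2 (-2.79, 0.0528) or NP zone 3 library 3 (-2.67, 0.0751). From NP to dpc16 Cyp2c37 fell, with log2 differences of -3.81 in zone 1 (adjusted p = 0.000786) and -3.75 in zone 2 (adjusted p = 0.00084). In zone 3 the difference was -1.86 (interval -3.09 to -0.62, adjusted p = 0.151).

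The group means of Cyp2c50 ran from 5.48 FPKM in dpc16 zone 1 to 1008 in dpc8 zone 3, a ratio of 184 (154 to 242 without 1 library). Its NP values were 80.3, 131 and 318 in zone 1 and 496, 616 and 974 in zone 3, without overlap. At dpc16 they were 4.94, 3.38 and 8.13 in zone 1, 53.7, 25.8 and 36.2 in zone 2, and 289, 226 and 196 in zone 3. The zone 1 minus zone 3 difference was -2.15 at NP (adjusted p = 0.238), -2.68 at dpc8 (adjusted p = 0.061) and -5.25 at dpc16 (SE 0.71, adjusted p = 5.99e-05), so only the last was called. From NP to dpc16 it fell in zone 1 (-4.61, adjusted p = 0.000704) and in zone 2 (-3.30, adjusted p = 0.0114), with -1.51 in zone 3 (adjusted p = 0.42). The zone 2 call was lost without NP zone 2 library 3 (-3.02, adjusted p = 0.0649) or dpc16 zone 2 library 2 (-3.05, 0.0543).

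Cyp2c54 followed with 31.8, 101 and 148 FPKM in NP zone 1 and 159, 259.8 and 423 in NP zone 3. At dpc16 it had 14.0, 7.78 and 28.8 in zone 1, 68.3, 27.4 and 31.9 in zone 2 and 167, 100.1 and 92.2 in zone 3. All 3 dpc16 values of zone 1 lay below those of NP zone 1 and of dpc16 zone 3. Its zone 1 minus zone 3 difference at dpc16 was -2.88 (SE 0.67, adjusted p = 0.0223), and the call was lost without dpc16 zone 1 library 1 (-2.85, adjusted p = 0.0889), zone 1 library 2 (-2.46, 0.162), zone 3 library 1 (-2.62, 0.14) or zone 3 library 2 (-2.99, 0.0621). The dpc16 minus NP differences of -2.33, -2.03 and -1.16 in zones 1, 2 and 3 were not called. With the replicate number as a block across stages, which no label ties together, the zone 1 value of -2.33 was called (adjusted p = 0.0373). The ratio of Cyp2c50 to Cyp2c54 within a library was 1.3 to 2.52 in NP zone 1 and 0.283 to 0.434 in dpc16 zone 1, while in zone 3 it was 2.30 to 3.11 at NP and 1.73 to 2.26 at dpc16. Over the 27 libraries Pearson's r between members on the log2 scale was 0.98 for Cyp2c37 with Cyp2c50 and 0.97 for Cyp2c50 with Cyp2c54, as a description over libraries that share zones and stages.

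Cyp2c69, whose promoter all but equals that of Cyp2c40, was lower at dpc16 than at NP in zones 1 and 2. It had 95, 173 and 105 FPKM in NP zone 1, 405, 452 and 535 in zone 2, and 634, 753 and 901 in zone 3. At dpc16 the values were 11.6, 8.72 and 6.85 in zone 1, 54.7, 31.3 and 39.6 in zone 2, and 583, 515 and 403 in zone 3. The 3 zones did not overlap at either stage, and at dpc16 the highest zone 2 value was far below the lowest zone 3 value. Zone 1 was below zone 3 by -2.64 (SE 0.33, adjusted p = 1.9e-05) at NP, -3.24 (adjusted p = 1.06e-06) at dpc8 and -5.65 (adjusted p = 2.12e-10) at dpc16. From NP to dpc16 Cyp2c69 fell in zone 1 (-3.61, adjusted p = 5.38e-07) and in zone 2 (-3.47, adjusted p = 1.17e-06). In zone 3 the difference was -0.61 (interval -1.29 to 0.07, adjusted p = 0.517), although all 3 dpc16 values there lay below all 3 NP values.

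The difference between those changes was itself tested. The dpc16 change of Cyp2c69 in zone 1 was lower than that in zone 3 by -3.01 (SE 0.46, adjusted p = 0.00513), a contrast in which 0.0386% of all genes were called lower. Its change in zone 2 was lower than that in zone 3 by -2.86 (adjusted p = 0.0213; 0.0154% of all genes). The zone 2 contrast was not called in 8 of the 12 refits without 1 library, with adjusted p-values of 0.0768 and 0.118 without NP zone 2 libraries 2 and 3, 0.122 and 0.08 without NP zone 3 libraries 1 and 2, 0.106 and 0.0628 without dpc16 zone 2 libraries 2 and 3, and 0.119 and 0.0913 without dpc16 zone 3 libraries 1 and 2, at differences of -2.87 to -2.67. No other member was called in these contrasts. For Cyp2c50 the zone 1 minus zone 3 difference of changes was -3.10 (SE 1.01, interval -5.19 to -1.01, adjusted p = 0.993), as large in size as that of Cyp2c69 and with a wider error.

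Cyp2c67, the closest in coding sequence to Cyp2c69, had 26.1, 62.3 and 42.1 FPKM in NP zone 1, 89.6, 101 and 102 in zone 2 and 144, 211 and 216 in zone 3. At dpc16 it had 19.4, 11.4 and 15.4 in zone 1, 32.2, 20.0 and 9.98 in zone 2 and 99.1, 85.7 and 54.8 in zone 3. Zone 1 was below zone 3 without overlap at both stages. The difference was -2.17 (SE 0.37, adjusted p = 0.00119) at NP, -2.85 (adjusted p = 3.97e-05) at dpc8 and -2.29 (adjusted p = 0.000507) at dpc16. From NP to dpc16 it fell in zone 2 (-2.32, adjusted p = 0.00084), and the differences of -1.38 in zone 1 (adjusted p = 0.0663) and -1.26 in zone 3 (adjusted p = 0.103) were not called. The ratio of Cyp2c67 to Cyp2c69 within a library was 0.274 to 0.402 in NP zone 1 and 1.31 to 2.25 in dpc16 zone 1, and 0.227 to 0.28 and 0.136 to 0.17 in zone 3 of these stages.

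Cyp2c40, an enzyme of arachidonic acid hydroxylation, had no zonation that could be called, in contrast to the values of Cyp2c69. At NP it had 132, 469 and 293 FPKM in zone 1, 161, 285 and 221 in zone 2, and 151, 218 and 251 in zone 3. At dpc16 it had 141, 54.3 and 116 in zone 1, 124, 106 and 60.6 in zone 2, and 146, 96.2 and 67.1 in zone 3. The zones overlapped at every stage. Its zone 1 minus zone 3 difference was 0.38 (interval -0.59 to 1.35) at NP, -0.44 (-1.41 to 0.53) at dpc8 and -0.03 (-0.996 to 0.938) at dpc16. The dpc16 minus NP differences of -1.44 in zone 1 (adjusted p = 0.159), -1.21 in zone 2 (0.179) and -1.03 in zone 3 (0.386) were not called. The ratio of Cyp2c69 to Cyp2c40 within a library was 0.358 to 0.72 in NP zone 1 and 3.45 to 4.19 in NP zone 3, and at dpc16 0.0592 to 0.161 in zone 1, 0.295 to 0.654 in zone 2 and 3.98 to 6.01 in zone 3. With 29.8% of the Cyp2c40 windows shared with Cyp2c69, the part of read placement in these ratios was not tested.

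Cyp2c29, Cyp2c23 and Cyp2c70 share no 86-base window with another gene, and none of them was called between zones 1 and 3 at any stage. Cyp2c29, an arachidonic acid epoxygenase known to be induced by phenobarbital, had 339, 405 and 657 FPKM in NP zone 1 and 842, 855 and 1256 in NP zone 3. At dpc16 it had 482, 233 and 1225 in zone 1, 441, 251 and 202 in zone 2 and 383, 274 and 250.4 in zone 3. Zone 1 lay wholly below zone 3 at NP and overlapped it at dpc16. The zone difference was -1.11 (interval -2.76 to 0.55) at NP and 0.79 (-0.86 to 2.45) at dpc16. The dpc16 minus NP differences were 0.20, -1.24 and -1.70 in zones 1, 2 and 3, with adjusted p-values of 0.944, 0.473 and 0.416.

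Cyp2c23, an arachidonic acid epoxygenase, had similar NP levels in all zones, with 149.5, 285 and 318 FPKM in zone 1, 277, 274 and 266 in zone 2 and 253, 248 and 275 in zone 3. At dpc16 it had 97.7, 127 and 179 in zone 1, 117, 119 and 56.2 in zone 2 and 107, 156 and 101 in zone 3. All dpc16 values of zones 2 and 3 lay below those of NP, and the zone 1 values overlapped through NP library 1. It fell in zone 2 (-1.55, SE 0.30, adjusted p = 0.00495). The differences of -0.86 in zone 1 (adjusted p = 0.203) and -1.11 in zone 3 (adjusted p = 0.0701) were not called. At dpc8 it had 205, 274 and 275 in zone 1 and 359.7, 319 and 309 in zone 3, where it lay above both dpc8 zone 1 and NP zone 3 without overlap, and neither difference was called. Its zone 1 minus zone 3 difference was -0.12 (interval -0.74 to 0.51) at NP, -0.40 (-1.02 to 0.22) at dpc8 and 0.13 (-0.495 to 0.75) at dpc16, the narrowest intervals of the family.

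Cyp2c70, the bile acid hydroxylase, had group means from 278 FPKM in dpc16 zone 3 to 647 in dpc16 zone 1, a ratio of 2.33. The ratio of the highest to the lowest group mean was 2.12 to 4.47 without 1 library, with 4.47 without dpc16 zone 3 library 3. Its NP values were 114, 375 and 522 in zone 1, 249.9, 349 and 396 in zone 2, and 192, 281 and 503 in zone 3. At dpc16 they were 265, 170.4 and 1506 in zone 1, 265, 159 and 455 in zone 2 and 183, 106 and 544 in zone 3. Library 3 was the highest and library 2 the lowest in every dpc16 zone, an order that 1.91% of all genes had. Without dpc16 zone 1 library 3 the zone 1 minus zone 3 difference at dpc16 went from 0.89 to -0.05. The dpc16 minus NP differences were 0.53, -0.28 and -0.45 in zones 1, 2 and 3, and none was called.

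Across the 10 members, the dpc16 minus NP comparison called 3 lower in zone 1 (Cyp2c37, Cyp2c50 and Cyp2c69; 0.371% of all genes were called lower), 5 lower in zone 2 (these and Cyp2c67 and Cyp2c23; 1.64%) and 0 in zone 3 (0.571%). No member was called higher, while 0.996%, 1.02% and 0.749% of all genes were. In zone 3, 6 members had an unadjusted p under 0.05 by limma, as did 11.5% of all genes, and all 10 differences were negative. The median difference over the 10 was -1.41, -1.85 and -1.14 in zones 1, 2 and 3, against -0.05, 0.04 and 0.02 over all genes. In this comparison the 13 pericentral genes had medians of -0.11, -1.01 and -0.35, with 0, 2 and 0 called lower and 8, 6 and 1 at an unadjusted p under 0.05. The 13 periportal genes had medians of -0.15, -1.07 and -0.48, with 0, 1 and 2 called lower and 1 called higher in zone 3. The part of both marker lists in the members' differences was not tested. All 3 dpc16 values lay below all 3 NP values for 5, 9 and 7 members, and for 8.01%, 9.59% and 8.87% of all genes. Without the 6 libraries with Y-linked FPKM, 7 members were called lower in zone 1 and 1 in zone 3, beside 1.1% and 1.6% of all genes. Without NP zone 1 library 1 alone, 5 were called in zone 1 (0.309% of all genes). With array weights or the connective genes as a covariate, 7 members were called lower in zone 1 and 3 in zone 3, beside 1.94% and 2.9% of all genes with the weights and 1.11% and 2.35% with the covariate. Quantile normalization called 1 in zone 3 (0.525% of all genes), and a fit of the compared groups alone called 3 in zone 2 (0.0926%), without Cyp2c23 (adjusted p = 0.243) and Cyp2c67 (0.112).

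**Figure D4:**
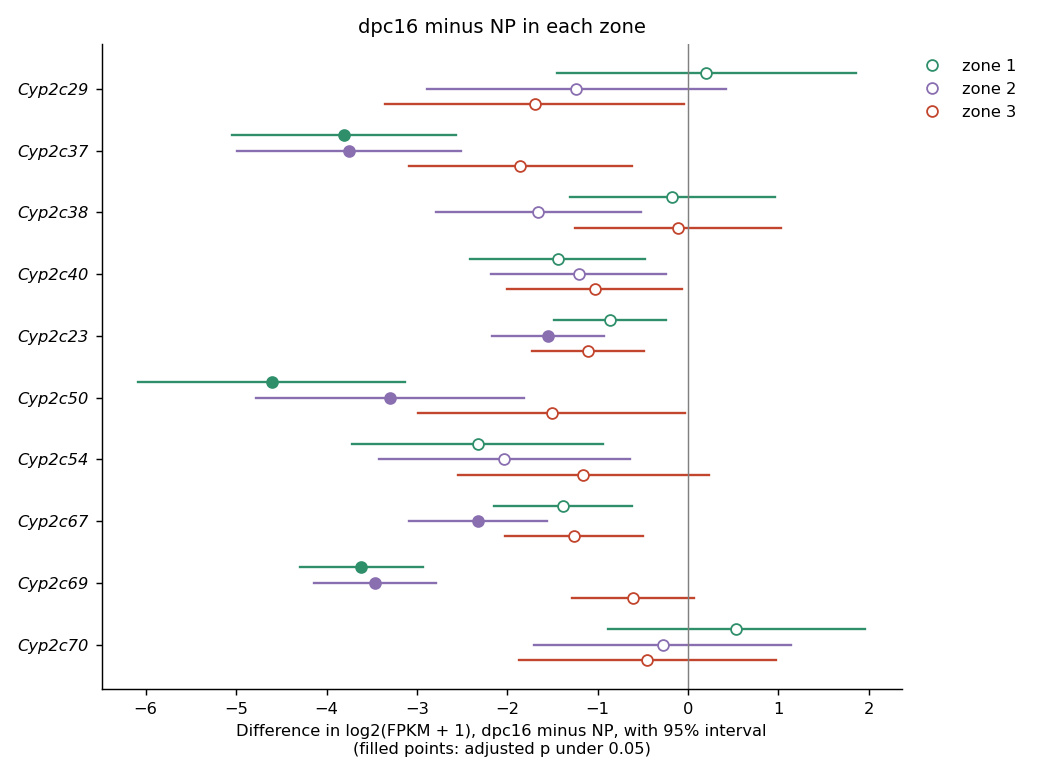
Difference in log2(FPKM + 1) between dpc16 and NP for each gene in zone 1 (green), zone 2 (purple) and zone 3 (red), with 95% intervals from limma; filled points have an adjusted p under 0.05. Cyp2c69 in zones 1 and 2 sits at -3.61 and -3.47 and in zone 3 at -0.61.

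Against dpc8 instead of NP, 3 members were called lower at dpc16 in zone 1 (0.741% of all genes), 5 in zone 2 (0.803%) and 1 in zone 3 (0.788%), with the dpc16 libraries shared between both comparisons. Fitted with the compared groups alone, 1 of the 3 members in zone 1, Cyp2c69, and 0 of the 5 in zone 2 kept the call, with adjusted p-values of 0.112 to 0.411 in zone 2. With the replicate number as a block across stages the counts were 4 (2.1% of all genes called in either direction, against 2.01% without the block) and 6 (1.91% against 1.51%). Cyp2c54 was added in zone 1 (adjusted p = 0.0354) and in zone 2 (0.0442). The member called in zone 3 was Cyp2c23, at 359.7, 319 and 309 FPKM at dpc8 against 107, 156 and 101 at dpc16 (-1.45, adjusted p = 0.0132). The zone 3 call was lost without dpc8 zone 3 library 1 (-1.39, adjusted p = 0.0635), dpc8 zone 3 library 2 (-1.47, 0.0524), dpc16 zone 3 library 1 (-1.38, 0.0688) or dpc16 zone 3 library 3 (-1.33, 0.0585). In zone 2, Cyp2c23 was not called without dpc8 zone 2 library 3 (adjusted p = 0.0525), Cyp2c50 without dpc8 zone 2 library 3 (0.084) or dpc16 zone 2 library 2 (0.0572), and Cyp2c67 without dpc8 zone 2 library 1 (0.057) or library 3 (0.065). Between neighbouring zones, Cyp2c38 and Cyp2c69 were called lower in zone 1 than in zone 2 at NP (0.108% of all genes) and at dpc8 (0.1%), and Cyp2c69 at dpc16 (0.0618%). Between zones 2 and 3, no member was called lower at NP (0.178% of all genes) or dpc8 (0.216%) by limma. At an unadjusted p under 0.05 there were 2 and 4 members, beside 7.02% and 4.32% of all genes. At dpc16, 4 were called lower in zone 2, namely Cyp2c37, Cyp2c38, Cyp2c67 and Cyp2c69 (0.317% of all genes). Of these, Cyp2c69 alone, at -3.57, was called in every refit without 1 library and with the compared groups alone. In that fit Cyp2c37 (adjusted p = 0.162), Cyp2c38 (0.433) and Cyp2c67 (0.606) lost the call, as did all members called between zones 1 and 2, namely Cyp2c38 (0.0727) and Cyp2c69 (0.174) at NP, both at dpc8 (0.638 and 0.653) and Cyp2c69 at dpc16 (0.35). Cyp2c37 and Cyp2c38 lost their calls without dpc16 zone 2 library 2 (-2.95, adjusted p = 0.0792, and -2.56, 0.123), dpc16 zone 3 library 1 (-2.90, 0.0971, and -2.25, 0.23) or dpc16 zone 3 library 2 (-3.12, 0.0573, and -2.54, 0.123). Cyp2c38 also lost its call without dpc16 zone 2 library 3 (-2.19, 0.132), and Cyp2c67 without dpc16 zone 3 library 1 (-1.82, 0.0811) or library 2 (-1.92, 0.0573). Cyp2c69 lost its NP call between zones 1 and 2 without NP zone 1 library 1 (-1.77, 0.0726) or NP zone 2 library 3 (-1.83, 0.0618). At dpc16 the libraries of 1 number deviated together in all zones. With the number as a block within the stage, the count between zones 1 and 2 was 3 (0.255% of all genes called in either direction, against 0.139% without the block). Cyp2c38 (adjusted p = 0.00042) and Cyp2c50 (adjusted p = 0.00615) were added there. Between zones 2 and 3 the count was 5 (0.857% against 0.517%), with Cyp2c50 added (adjusted p = 0.00242).

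At dpc8 no member was called against NP in any zone by limma (0.0309%, 0.00772% and 0.0154% of all genes were called in zones 1, 2 and 3). An unadjusted p under 0.05 was found for 1, 0 and 0 members, and for 3.13%, 5.06% and 2.74% of all genes. The dpc8 libraries differed widely among themselves for some members. Cyp2c29 had 240.0, 1634 and 3296 FPKM in zone 1, 474, 1255 and 3825 in zone 2, and 640.0, 2307 and 3614 in zone 3 in libraries 1, 2 and 3. The spread in zone 1 was 13.7-fold, and library 1 was the lowest and library 3 the highest in each zone. Cyp2c50 ran in the same order with 27.7, 265 and 439.8 in zone 1, 213, 475 and 953 in zone 2, and 606, 1143 and 1273 in zone 3, as did Cyp2c37 and Cyp2c54. This order in all 3 zones was found in 4 of the 10 members and in 1.74% of all genes. Cyp2c38 ran otherwise, with library 1 the highest in each zone, and Cyp2c23 spanned 1.34-fold, 1.43-fold and 1.16-fold in zones 1, 2 and 3. Outside the members, and chosen after their values were seen, Cyp2b10, a P450 induced through the nuclear receptor CAR, and Gstm4, a glutathione transferase and the gene most correlated with Cyp2c29, had the same order. Cyp2b10 had 14.9, 59.0 and 124 FPKM in zone 1 and 4.82, 40.5 and 55.9 in zone 3 at dpc8. Dpc8 zone 1 library 1 was also 1 of the 6 libraries with Y-linked FPKM, while libraries 1 of dpc8 zones 2 and 3 were not.

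**Figure D5:**
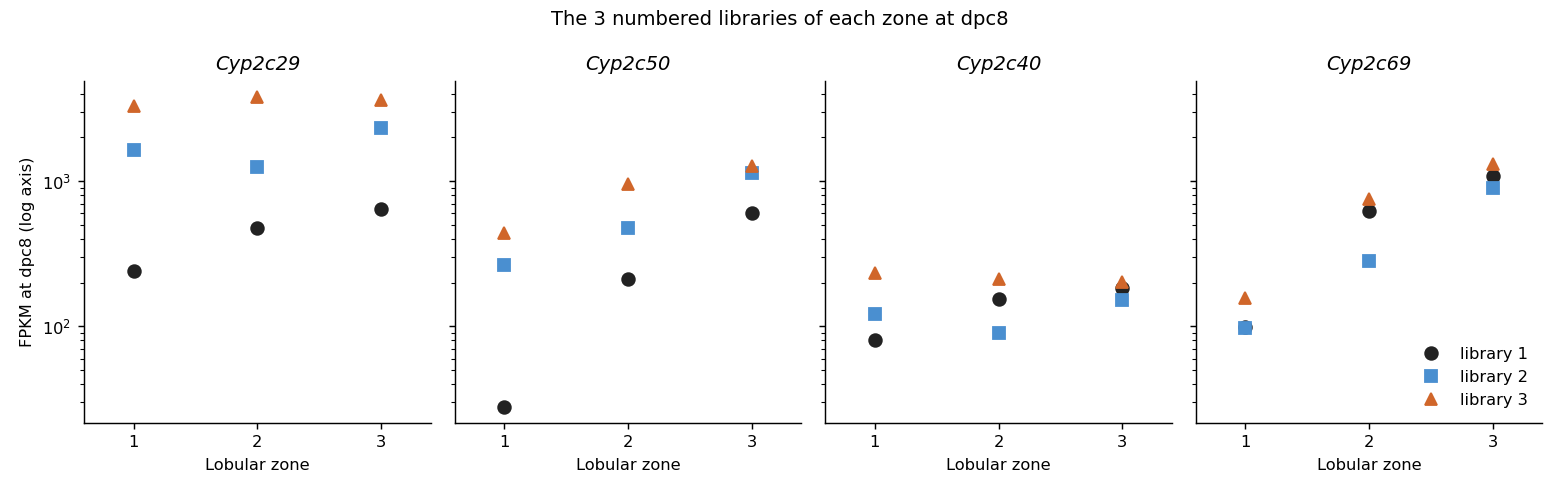
FPKM on a log axis of Cyp2c29, Cyp2c50, Cyp2c40 and Cyp2c69 at dpc8 in zones 1 to 3, with circles, squares and triangles for libraries 1, 2 and 3. For Cyp2c29 and Cyp2c50 the circle is lowest and the triangle highest in each zone, and for Cyp2c69 the square is lowest.

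Other genes of the family and its pathway were counted from lists chosen with earlier results of these data known. Of the 5 other Cyp2c genes in the table, Cyp2c39, the nearest gene in coding sequence to Cyp2c38 (94.2% identical) and Cyp2c29 (89.5%), was called lower in zone 1 than in zone 3 at each stage. Its means were 2.2 and 12.5 FPKM at NP, 1.51 and 18.7 at dpc8 and 1.10 and 18.2 at dpc16, with differences of -2.09, -2.97 and -3.11. Cyp2c68 and Cyp2c55 were tested and not called in these comparisons, and Cyp2c65 and Cyp2c66 did not pass the filter. Of 8 electron-transfer partners, 0 were called by limma between zones 1 and 3 at any stage (2, 2 and 1 at an unadjusted p under 0.05), and in the dpc16 minus NP comparisons Cyb5b alone was called lower, in zone 3 (81.0 against 210.5 FPKM, -1.40, adjusted p = 0.0402). Por, the reductase that serves every member, had means of 269, 323 and 544 FPKM in NP zones 1, 2 and 3 and 259.9, 301 and 584 at dpc16. Of 12 tested enzymes of epoxy fatty acid and eicosanoid handling, 0 were called by limma in the zone 1 minus zone 3 or dpc16 minus NP comparisons, with 0 to 2 in each at an unadjusted p under 0.05.

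Of 27 tested regulators, 2, 3 and 2 were called lower in zone 1 than in zone 3 at NP, dpc8 and dpc16, and 0 higher. In the comparisons of dpc16 with NP, Ghr and Prlr, the receptors for growth hormone and prolactin, were called higher at dpc16 in every zone. Ghr rose from 171 to 2077 FPKM in zone 1, from 213 to 1602 in zone 2 and from 280.3 to 1533 in zone 3, with adjusted p-values of 5.57e-07, 3.26e-05 and 0.000148. Prlr rose from 211 to 2147, from 317 to 1740 and from 349 to 1749, with adjusted p-values of 6.97e-06, 0.00117 and 0.00127. Stat5a was called lower in zone 2, at 3.03 against 7.47 FPKM (-1.05, adjusted p = 0.0464). Nr1i3, which encodes CAR, had 61.4, 134 and 145.0 FPKM in NP zones 1, 2 and 3 and 49.3, 70.8 and 93.6 at dpc16, and was not called. Of 17 other Cyp2 genes tested, 2, 1 and 2 were called higher and 4, 4 and 3 lower in zone 1 than in zone 3 at NP, dpc8 and dpc16, and 1, 0 and 1 were called higher and 1, 2 and 1 lower at dpc16 than at NP in zones 1, 2 and 3. Cyp2f2 was higher in zone 1 than in zone 3 at each stage (8.06, 5.87 and 8.26), Cyp2d40 was higher at dpc16 than at NP in zones 1 and 3 (1.86 and 1.76), Cyp2b13 was called lower at dpc16 than at NP in each zone (-3.99, -4.44 and -2.82), and Cyp2e1 was called lower in zone 1 than in zone 3 at each stage (-5.30, -5.98 and -6.33). Of 8 bile acid genes, Slc10a1, the bile acid importer, and Cyp27a1, a sterol hydroxylase, were called lower at dpc16 in zone 2.

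By Pearson's r of log2(FPKM + 1) over the 27 libraries, which share zones and stages, the 2 genes outside the members most like each member were as follows. Cyp2c38 was most like Cyp2e1 (r = 0.964) and Oat (0.96), Cyp2c69 like Slco1b2 (0.961) and Lect2 (0.957), Cyp2c37 like Aox1 and Slco1b2 (0.95 each), and Cyp2c67 like Slc16a10 (0.955) and Hpgd (0.953). Cyp2c50 was most like Nrn1 (0.934) and Gm4756 (0.929), Cyp2c54 like Nrn1 (0.936) and Cyp1a2 (0.912), and Cyp2c23 like Ndrg2 (0.959) and Slc22a26 (0.947). Cyp2c29 was most like Gstm4 (0.885) and Cyp2c55 (0.865), Cyp2c40 like Ttr (0.859) and Agpat2 (0.857), and Cyp2c70 like Lrtm1 (0.839) and Micu2 (0.766). Among the members, r of Cyp2c70 with the others ran from -0.16 with Cyp2c38 to 0.46 with Cyp2c29.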

How the data were processed

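RNA from laser-microdissected liver zones was sequenced as single-end reads. Per the labels and the study's methods, the authors trimmed reads with cutadapt, used HISAT2 2.1.0 for alignment to mm10, discarded reads with several places, and took gene levels from Cuffdiff (Cufflinks 2.2.1). The deposited values are FPKM for 21823 protein-coding genes in 27 libraries; counts are not given, so the precision per value is known only through the depth estimate. The study's test needs reads and was replaced by limma 3.58.1 (R 4.3.3) on log2(FPKM + 1), 1 fit of 9 group means with trend and robust settings, for 12952 genes of at least 1 FPKM in at least 3 libraries. Fold changes are on that scale.

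The members and gene lists were chosen with earlier results of these data known. All 10 members are named, with the 2 genes most correlated with each, and other genes as examples of their lists. Same-numbered libraries deviated together at dpc16 (all 9 correlations between zones over 0.1, 0.263 to 0.863). They did so less evenly at NP (4 of 9 over 0.1, -0.074 to 0.597) and dpc8 (5 of 9, -0.318 to 0.698). The number as a block, a pseudocount of 0.1, no filter, quantile normalization, the compared groups alone, array weights, a connective tissue covariate, leaving out 6 libraries and each library in turn were tried. For comparisons of zones, and of changes between zones, the block lay within each stage. For comparisons of stages it joined the same number across stages, although no label ties those libraries together. The fit was tested on simulated data. Sequences came from RefSeq.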

Additional observations from a re-analysis of the deposited data

Results flagged for a closer look

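Cyp2c69 was flagged because its change from NP to dpc16 differed between zones by a test of the difference itself, in limma with adjustment over all genes. The change in zone 1 was lower than that in zone 3 by -3.01 on the log2 scale (SE 0.46, adjusted p = 0.00513), and the change in zone 2 was lower than that in zone 3 by -2.86 (SE 0.46, adjusted p = 0.0213). All 3 dpc16 libraries lay below all 3 NP libraries in each of the 3 zones. The zone 2 minus zone 3 difference was not called in 8 of the 12 refits without 1 library, with adjusted p-values of 0.0628 to 0.122, nor with the compared groups alone (0.158). Of the 86-base windows of Cyp2c69, 32.8% also occur in Cyp2c40, and the part of read placement between these genes in the difference was not tested.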

How the results depend on the processing

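The count of members called depended on the processing. At dpc16 against NP it was 7 in zone 1 with array weights (1.94% of all genes called lower), without the 6 Y-linked libraries (1.1%) or with the connective covariate (1.11%), against 3 in the reported fit (0.371%). It was 3 in zone 2 with the compared groups alone (0.0926%), against 5 (1.64%). In zone 3 it was 1 with quantile normalization (0.525%), 3 with array weights (2.9%), 1 without those libraries (1.6%) and 3 with the covariate (2.35%), against 0 (0.571%). Leaving out 1 library gave 3 to 5 in zone 1 (0.17% to 0.486% of all genes), 4 to 5 in zone 2 (0.872% to 1.81%) and 0 in zone 3 (0.263% to 0.602%). The counts for zone 1 minus zone 3 stayed within 1.5 times of the reported ones. Over the other settings they were 3 to 6 at NP (0.332% to 1.36% of all genes called lower, against 0.811% in the reported fit). At dpc8 they were 3 to 6 (0.657% to 2.83%, against 0.926%) and at dpc16 6 (0.587% to 1.76%, against 0.772%). Without 1 library they were 3 to 4 (0.486% to 0.695%), 4 to 6 (0.54% to 0.903%) and 5 to 6 (0.525% to 0.726%). Of values called in the reported fit, none changed sign, and 22 of 336 tests under other settings and 40 of 264 without 1 library lost the call. Of the 22, 20 were lost with the compared groups alone, a fit of fewer libraries, among them all 5 in zone 2 and 2 of 3 in zone 1 at dpc16 against dpc8, all 5 between zones 1 and 2 over the 3 stages, and 3 of 4 between zones 2 and 3 at dpc16.

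Values that changed sign were all of members not called. In zone 1 minus zone 3, these were Cyp2c23 at NP (0.08 with array weights, 0.19 without the Y-linked libraries) and dpc16 (-0.04 with array weights, -0.013 with the covariate), Cyp2c70 at NP (0.016 with quantile normalization, 0.21 with array weights, 0.51 without those libraries) and dpc8 (0.121, 0.016 and 0.084 likewise), Cyp2c29 at dpc8 (0.41 without those libraries) and Cyp2c40 at dpc8 (0.007 with the covariate). In dpc16 minus NP, these were Cyp2c29 in zone 1 (-0.14 with quantile normalization, -0.15 with array weights, -0.15 with the covariate), Cyp2c38 in zone 1 (0.093 with quantile normalization) and zone 3 (0.23 with array weights, 0.37 without the Y-linked libraries) and Cyp2c70 in zone 1 (-0.24 with array weights, -0.11 without those libraries). The cause was not tested. The difference of the Cyp2c69 change between zones 2 and 3 was not called with the compared groups alone (adjusted p = 0.158; 0.000988 to 0.0419 in the other settings), nor was Cyp2c38 between zones 2 and 3 at dpc16 with a pseudocount of 0.1 (0.212) or without the Y-linked libraries (0.0574).

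Without 1 library, the zone 1 minus zone 3 ranges that crossed 0 were -0.039 to 0.872 (Cyp2c40), -0.32 to 0.22 (Cyp2c23) and -0.54 to 0.56 (Cyp2c70) at NP, -1.48 to 0.41 (Cyp2c29) and -0.341 to 0.089 (Cyp2c70) at dpc8, and -0.30 to 0.38 (Cyp2c40), -0.10 to 0.33 (Cyp2c23) and -0.048 to 1.544 (Cyp2c70) at dpc16. For dpc16 minus NP they were -0.42 to 0.78 (Cyp2c29), -0.59 to 0.36 (Cyp2c38) and -0.41 to 1.16 (Cyp2c70) in zone 1, -0.664 to 0.093 (Cyp2c70) in zone 2, and -0.41 to 0.20 (Cyp2c38) and -1.102 to 0.071 (Cyp2c70) in zone 3.

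At NP and dpc8 the libraries share only a number. With the number as a block there, 6 members were called between zones 1 and 3 at each stage, beside 2.18% of all genes at NP (1.34% without the block) and 3.54% at dpc8 (1.61%), Cyp2c50 (adjusted p = 0.0067 and 0.000905) and Cyp2c54 (0.0229 and 0.00298) being added. A block of the number across stages, which no label ties together, added Cyp2c54 in zone 1 (0.0373) and Cyp2c38 in zone 2 (0.0451) for dpc16 minus NP. Beside these, 1.74% (1.37%) and 2.92% (2.66%) of all genes were called. Between zones 1 and 3 at dpc16 the block within the stage left the count at 6 (2.65% of all genes, against 1.55%). Between zones 1 and 2 the block within the stage also added Cyp2c37 (0.0465) at NP, beside 0.448% of all genes (0.154% without the block). At dpc8 it added Cyp2c67 (0.0379) there, beside 0.201% (0.124%). Between zones 2 and 3 at dpc8 it added Cyp2c38, Cyp2c67 and Cyp2c69, beside 0.564% (0.347%).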
